A study of Mus musculus with 6 samples.

Results

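The gonadotropin receptors and ovulation cascade were taken as 10 listed genes matched to the platform's symbols without regard to case. Of these, 7 matched, each with 1 probe, out of 17742 genes named on the array: the receptor Fshr, the growth factors Ereg and Btc, the cumulus matrix genes Tnfaip6, Has2 and Ptx3, and the protease Pappa. The receptors Lhcgr and Prlr and the growth factor Areg matched no platform symbol and are not analysed here, so 1 of the 3 listed receptors and 2 of the 3 listed growth factors stand for their classes.

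Follicle-stimulating hormone acts through Fshr, a cyclic AMP-coupled receptor of granulosa cells, and drives the growth of the follicle. The surge of luteinising hormone then acts through Lhcgr on the follicle wall, where growth factors of the epidermal growth factor (EGF) family are released and carry the signal inward to the cumulus cells around the egg. The cumulus cells answer by building a hyaluronan matrix, which loosens them from one another before ovulation.

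The mice were BALB/c females. Some were left untreated (mock) and others received oral SHT, the herbal medicine Sheng-Hua-Tang, for 7 days (200 mg/kg), and RNA labelled with Cy5 was hybridised to 1-colour arrays. There were 6 groups, brain, ovary and uterus each with mock and with SHT, and 1 array for each. Precision is limited by this number of arrays, and a difference between 2 of them has no replicate error. Runs of 6 intensities below are given in the order brain, ovary, uterus by label, with mock before SHT in each. The labels give neither the age or cycle stage of the mice nor whether RNA was pooled or tissues shared a mouse. Median intensity lay between 179 and 224 over the arrays, and the 95th percentile of 529 olfactory receptor genes, silent in most tissues, gave each array a background bound (275 to 541).

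Tissue markers contradicted the label on 4 of the 6 arrays. Of 6 brain markers, 6 lay above the background bound on the arrays with labels mock brain and SHT ovary and 0 to 3 on the others. Of 10 granulosa and oocyte markers, 9 lay above it on those labelled SHT brain and mock uterus and 1 or 2 on the others. Of 7 squamous epithelium markers, 7 lay above it on those labelled mock ovary and SHT uterus and 2 or 3 on the others. Labels were judged by the brain, ovary and uterus lists alone, by mean log2 level relative to all arrays. Of 6 uterus markers, 5 lay above the bound on SHT brain, mock ovary and SHT uterus, 4 on mock uterus and 2 elsewhere. By count they thus separated arrays poorly, but they summed to 31666 and 36379 on mock ovary and SHT uterus, against 3298 to 10908 on the others. The 3 pairings by brain, granulosa and oocyte, and squamous markers were also the closest of the 15 pairs of arrays over all probes. Their Pearson correlations of log2 intensity were 0.996, 0.981 and 0.972 in that order. Arrays are named by their labels below, and a direction is assigned neither to a tissue nor to the treatment. Every labelled pair holds at least 1 array whose label its markers contradict, so no labelled pair is left once those arrays are set aside.

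Promoters of 3 of the matched genes are shown because their values follow. Fshr and Ptx3 were both above the background bound on the arrays labelled SHT brain and mock uterus, and Btc differed as read by at least 2-fold in every labelled tissue. Each line is the 250 bases before the annotated start, 5′ to 3′ on the gene's strand, from RefSeq on GRCm38.p6. Capitals mark a match to a searched motif on either strand. The Fshr window is chr17:89200676-89200925 on the minus strand, the Ptx3 window chr3:66219637-66219886 on the plus strand and the Btc window chr5:91402995-91403244 on the minus strand.
Fshr: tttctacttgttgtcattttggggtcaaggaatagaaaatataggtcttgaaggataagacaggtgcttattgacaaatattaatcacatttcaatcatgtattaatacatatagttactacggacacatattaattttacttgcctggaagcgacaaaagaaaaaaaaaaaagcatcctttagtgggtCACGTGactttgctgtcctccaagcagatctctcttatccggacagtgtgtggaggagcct
Ptx3: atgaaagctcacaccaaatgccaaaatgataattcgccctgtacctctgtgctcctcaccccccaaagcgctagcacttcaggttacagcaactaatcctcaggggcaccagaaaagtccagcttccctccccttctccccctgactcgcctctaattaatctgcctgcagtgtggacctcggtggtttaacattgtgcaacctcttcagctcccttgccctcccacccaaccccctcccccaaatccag
Btc: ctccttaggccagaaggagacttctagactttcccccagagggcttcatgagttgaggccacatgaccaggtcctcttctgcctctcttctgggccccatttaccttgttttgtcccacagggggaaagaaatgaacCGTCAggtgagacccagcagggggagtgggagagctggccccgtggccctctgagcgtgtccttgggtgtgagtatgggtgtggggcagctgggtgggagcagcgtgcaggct

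The Fshr window held 1 E-box (CACGTG), a site that basic helix-loop-helix factors bind, beginning 61 bases before the start. This motif was added after the sequence was seen, and 6.02% of 32851 promoter windows of the same length held it. The Btc window held the core of the cyclic AMP response element (TGACG) in reverse, beginning 113 bases before the start, as did 17.8% of windows in either direction. Neither these nor the Ptx3 window held the full element (TGACGTCA, in 1.55% of windows, which contains this core on both strands), AAGGTCA of steroidogenic factor 1 (4.08%), TGANTCA of AP-1 (6.75%) or AGATAA of GATA factors (9.99%). A match to these letters is a description and not evidence of a bound site.

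Fshr was the receptor measured, and its probe stood above the background bound on the arrays with granulosa and oocyte markers. Fshr read 248 and 449 on the arrays labelled mock and SHT brain, 137 and 190 on mock and SHT ovary, and 557 and 140 on mock and SHT uterus. Only the values on those labelled SHT brain and mock uterus exceeded the bounds there, 275 and 295. The other 4 values lay inside the background spread and have no order among themselves. By a stricter bound at the 99th percentile (569 to 933), Fshr exceeded it on no array, nor did Btc or Ptx3. This pattern of arrays above the bound was shared by 377 genes, 2.12% of those named. In tissue RNA, fewer cells of a type and less RNA per cell cannot be told apart.

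Inha, the inhibin subunit made by granulosa cells, read 19107 and 29563 on the arrays labelled SHT brain and mock uterus and at most 629 on the others. Oviduct markers stood on these 2 arrays as well, with 4 of 4 above the bound, summed intensities of 27649 and 36047 and at most 756 elsewhere, and their part in the Fshr values was not tested. Over the 6 arrays, the genes nearest to Fshr in log2 profile around their own mean were Tm4sf5, Umodl1 and ccdc198. Their root mean square distances were 0.12, 0.13 and 0.15 among 10763 genes above the level floor. The distance uses all 6 values, and 4 of those of Fshr lay inside the background spread, so this likeness rests in large part on background readings.

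**Figure D1:**
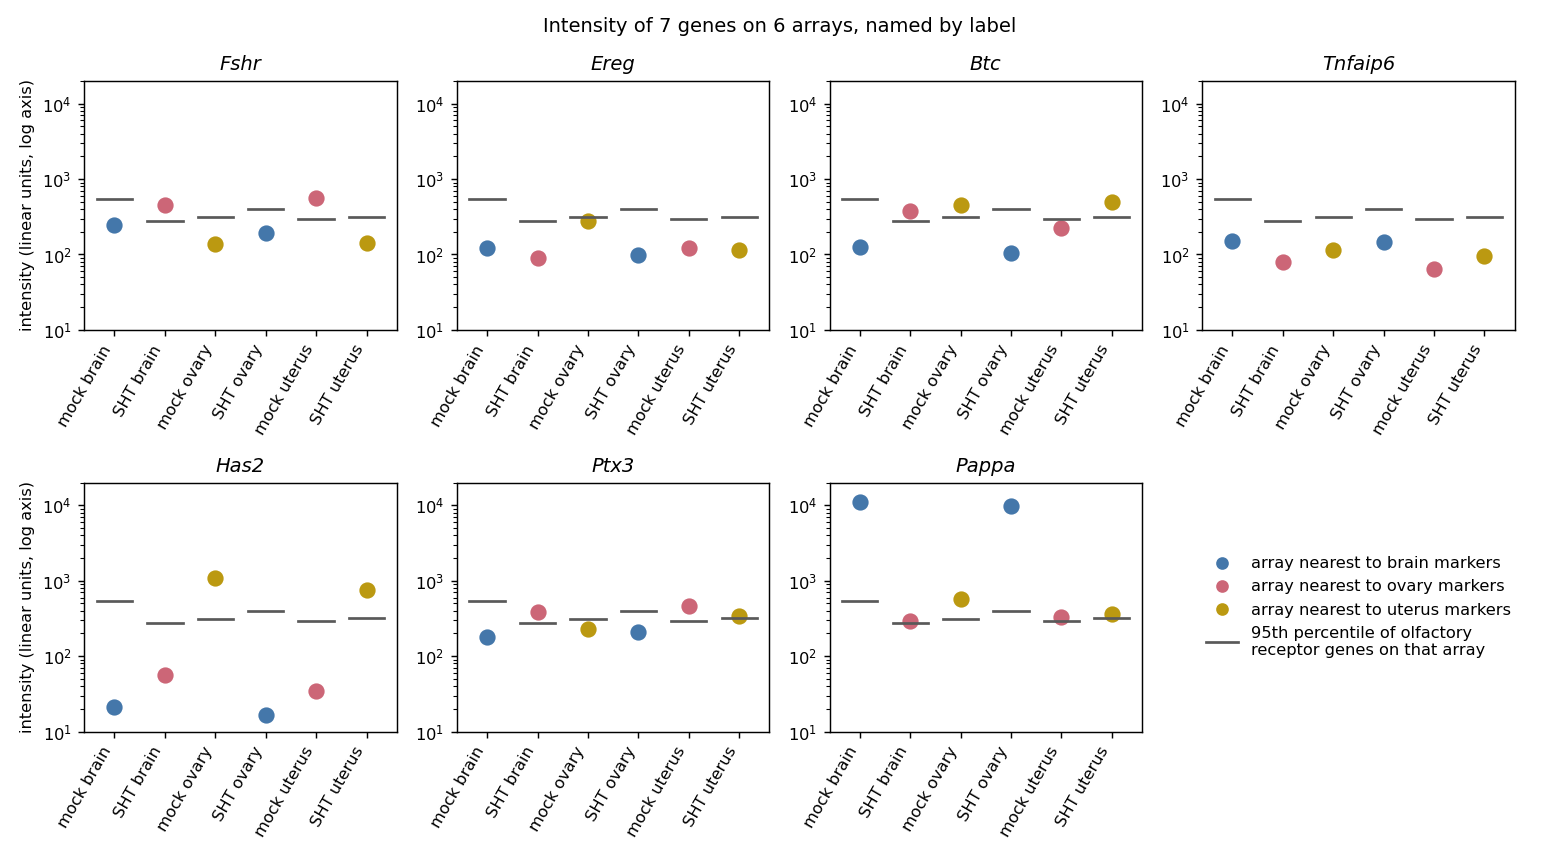
Intensity of each of the 7 genes (vertical log axis, linear intensity units) on the 6 arrays named by label (horizontal axis), with points coloured by the tissue whose markers the array is nearest to and grey lines at the background bound. Pappa reads 11057 and 9721 on the arrays with labels mock brain and SHT ovary, Has2 exceeds the bound on those labelled mock ovary and SHT uterus, and Ereg and Tnfaip6 lie under the line on all 6.

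Of the growth factors, Btc was above the bound on 3 arrays and Ereg on none. Ereg, Areg and Btc are adjacent protein-coding genes on chromosome 5, in that order, and each encodes a membrane-anchored ligand of the EGF receptor family. Btc read 124, 375, 459, 104, 227 and 495. It exceeded the bound on the arrays labelled SHT brain, mock ovary and SHT uterus and lay inside the background spread on the other 3. That pattern was shared by 115 genes, 0.648%. Ereg read 123, 88.9, 280, 97.8, 122 and 115. Its highest value, on the array labelled mock ovary, lay under the bound of 312 there, so no difference in Ereg could be measured.

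The matrix genes fell into 3 patterns. Has2, the enzyme that makes the hyaluronan of the expanding cumulus, read 21.0, 56.6, 1098, 16.7, 34.1 and 747. The values on the arrays with labels mock ovary and SHT uterus exceeded their bounds of 312 and 318, and the other 4, at most 56.6, lay inside the background spread. Hence Has2 was not above the bound on the arrays with granulosa and oocyte markers, and 271 genes (1.53%) shared its pattern. On the 2 arrays where it was, squamous epithelium markers summed to 285720 and 234787, against 3131 to 5112 elsewhere, and fibroblast markers to 43247 and 44741, against 2432 to 15522. Their part in the Has2 values was not tested. Chosen for this listing after its values were seen, Has2 had as nearest profiles Chrdl2, Tns4 and Inmt, at distances of 0.43, 0.43 and 0.44. These distances also use the 4 values of Has2 inside the background spread.

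Ptx3, a pentraxin that cross-links the matrix, read 179, 386, 230, 211, 469 and 337. It exceeded the bound on the arrays labelled SHT brain, mock uterus and SHT uterus, on the last by little (337 against 318). Tnfaip6, which transfers the heavy chains of inter-alpha-trypsin inhibitor to hyaluronan, read 149, 80.2, 114, 146, 64.0 and 95.5. All 6 values lay under the bounds, and Tnfaip6 and Ereg were thus among 6053 genes (34.1%) above the bound on no array.

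Pappa, a metalloproteinase that cleaves the insulin-like growth factor binding protein Igfbp4 in the follicle, had the highest contrast measured above background on both sides. It read 11057, 297, 566, 9721, 335 and 361. The arrays with labels mock brain and SHT ovary stood far above the other 4, where Pappa exceeded the 95th percentile bound but, by the 99th percentile bound, did not. Brain markers, 6 of 6 above the bound, summed to 140507 and 139694 on the 2 high arrays and to 636 to 4663 on the others, and their part was not tested. Its nearest profiles, also listed after its values were seen, were those of Aplp1, Cacna1i and Dmtn, at distances of 0.12, 0.18 and 0.22. Aplp1, a neuronal relative of the amyloid precursor protein, read 12123, 290, 501, 9047, 350 and 396. Whether the probe named Pappa measures that gene is not known here.

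By array, 1, 4, 3, 1, 3 and 4 of the 7 genes exceeded the bound, in the same order. Over all named genes the shares were 44.2%, 54.4%, 51.1%, 48.0%, 55.3% and 55.2%. The single gene above the bound on the arrays with labels mock brain and SHT ovary was Pappa.

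The comparison the study set up was SHT against mock within each labelled tissue. Differences are on the log2 scale relative to the median gene of the pair (-0.12, 0.13 and -0.02 for brain, ovary and uterus). A gene counted when it differed by at least 2-fold and its mean log2 intensity over the pair exceeded that of the median probe, the level floor (203 to 218). A fold is a lower bound where the dimmer array read under its background bound, which then takes the place of its value. A log2 difference given as read keeps that value and is still relative to the median gene.

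In the pair labelled brain, 4 of the 7 genes passed the floor, with 2 higher and 1 lower on the array labelled SHT brain. Over all 10746 genes above the floor 24.7% were higher and 21.7% lower. Pappa was 34.3-fold lower there (log2 difference -5.10), measured above the bound on both arrays. With the 99th percentile as the bound, it was at least 17.8-fold lower. Btc (1.72) and Ptx3 (1.23) were counted as higher, but both lay inside the background spread on the array labelled mock brain, whose bound of 541 exceeded their values on the other, so no fold can be given. Fshr differed by 0.97, short of 2-fold, and by 1.10 after quantile normalization, past it, while Btc (1.89) then lay under the level floor and was not counted.

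In the pair labelled ovary, 3 genes passed the floor, with 1 higher and 1 lower. Over 10692 genes 23.0% were higher and 23.4% lower. Pappa was 15.7-fold higher on the array labelled SHT ovary (3.97). Btc was at least 1.24-fold lower there (-2.27 as read). Has2 did not pass the floor because its value on the array labelled SHT ovary was so low, yet it was at least 2.98-fold lower there (-6.17 as read), or at least 1.74-fold with the 99th percentile as the bound. Ereg (-1.64), also under the floor, lay inside the background spread on both arrays.

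In the pair labelled uterus, 4 genes passed the floor, with 1 higher and 1 lower. Over 10765 genes 13.1% were higher and 8.26% lower. Fshr was at least 1.73-fold lower on the array labelled SHT uterus (-1.98 as read), and Btc at least 1.70-fold higher (1.14 as read). After quantile normalization Btc differed by 0.94 and no longer counted. Has2, again under the floor, was at least 2.56-fold higher (4.47 as read), or at least 1.31-fold with the 99th percentile as the bound. With that bound no fold can be given for Fshr in this pair or for Btc in any of the 3. Pappa differed by 0.12 and Ptx3 by -0.46.

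**Figure D2:**
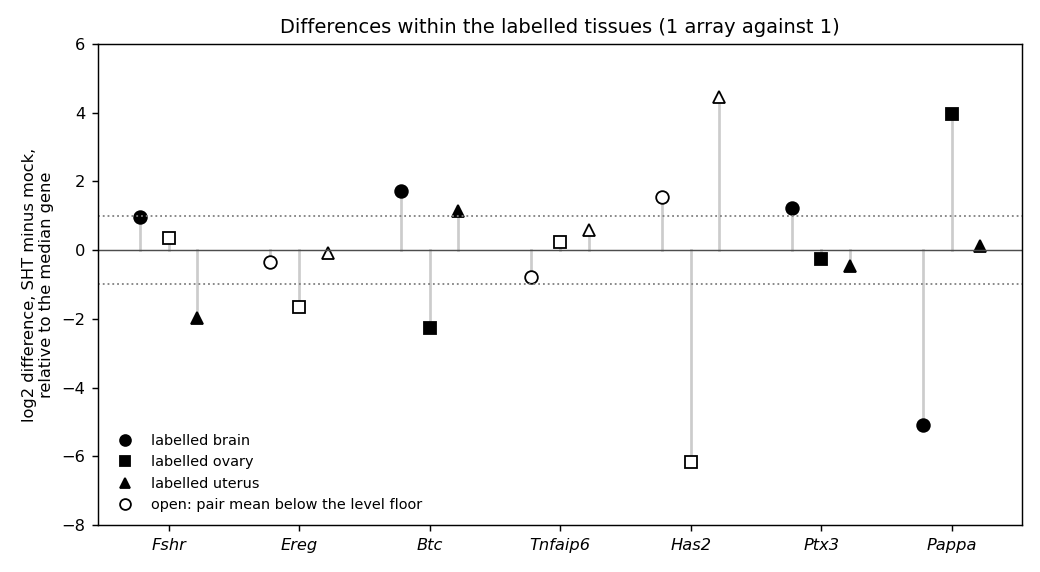
Log2 difference, SHT minus mock, relative to the median gene (vertical axis) for each of the 7 genes (horizontal axis) in the 3 labelled tissues, 1 array against 1, with dotted lines at 2-fold and open symbols where the pair lay below the level floor. Pappa is at -5.10 in the pair labelled brain and 3.97 in the pair labelled ovary, and Btc is on both sides of 0.

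The closest arrays were set side by side as a gauge of how far the same genes differ between arrays with like profiles, which share neither tissue label nor treatment. Of the 2, 4 and 4 genes above the floor in these pairs, none was at least 2-fold different. Over all genes above the floor, 0.113% did between the arrays with labels mock brain and SHT ovary, 6.39% between SHT brain and mock uterus, and 11.2% between mock ovary and SHT uterus. Pappa differed by 1.07-fold between the first pair of arrays and Fshr by 1.05-fold between the second. Has2 was 1.85-fold and Pappa 1.98-fold higher on the array labelled mock ovary than on that labelled SHT uterus, relative to the median gene, with both values of Pappa under the 99th percentile bounds there.

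The average SHT effect over the 3 labelled tissues was fitted with limma over 10763 genes, with labelled tissue as a block. None of the 4 genes tested passed (Fshr, Btc, Ptx3 and Pappa, each with an adjusted p of 0.99996 after Benjamini-Hochberg adjustment), and 0% of all genes did. At an unadjusted p under 0.05, 0 of the 4 and 4 of all genes passed. Pappa averaged -0.34 ± 1.97 (SE), Fshr -0.22 ± 0.81, Btc 0.19 ± 0.98 and Ptx3 0.17 ± 0.61 on the log2 scale over 3 differences. The error in this fit is the spread between labelled tissues, not between mice. As the markers contradict the label of at least 1 array in every pair, that spread holds differences between tissue profiles. The fit therefore cannot decide whether SHT had an effect, and no conclusion is drawn from it.

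Around these genes, other parts of the pathway were described by lists, with brain, ovary and uterus standing for the labelled pairs and higher or lower for the SHT array. Over all genes above the floor the median difference was 0.08, 0.01 and 0.05 in the pairs labelled brain, ovary and uterus. The shares counted over all genes were 24.7%, 23.0% and 13.1% higher and 21.7%, 23.4% and 8.26% lower. A list count near these shares is not a result about the list. The list of genes induced by follicle-stimulating hormone holds Inha and Fst, which are also granulosa and oocyte markers. Its counts are thus not independent of the markers that set the arrays labelled SHT brain and mock uterus apart. In the pair labelled brain, Fshr itself was not counted (0.97) and has no fold. Of 6 listed genes above the floor there, 5 were higher on the SHT array (median 4.55). Of 6 in the pair labelled uterus, 5 were lower (median -4.96), and in the pair labelled ovary 1 of 3 was higher. Nr5a1, steroidogenic factor 1, read 34.1, 2174, 40.8, 29.3, 3495 and 34.3. Its relative Nr5a2 read 39.4, 1327, 29.4, 36.9, 2981 and 38.0. Both were high on the arrays labelled SHT brain and mock uterus alone. Fst, which binds activin, was at least 6.30-fold higher in the first pair and 12.5-fold lower in the last.

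Luteal genes were counted as higher in 5 of 5 (median 6.48) in the pair labelled brain and lower in 6 of 6 (median -5.59) in the pair labelled uterus, and 1 of 3 was lower in the pair labelled ovary. Akr1c18, the enzyme that inactivates progesterone, was 76.9-fold higher in the first and 143-fold lower in the second. These values are of the same arrays as the Fshr values and are not independent of them. Star, Hsd3b1 and Akr1c18 of this list are also ovary markers by which the labels were judged. The luteal counts are thus not independent of the markers that set the arrays labelled SHT brain and mock uterus apart.

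Hormones of the pituitary were near background. Prl, Lhb and Cga lay under the bound on all 6 arrays. Fshb, which encodes the beta subunit of follicle-stimulating hormone, read 555, 170, 223, 482, 190 and 222, above the bounds of 541 and 403 on the arrays with labels mock brain and SHT ovary. The pituitary markers Prl, Gh and Cga lay under the bound there, and Pomc exceeded it on the second of these arrays (491). Downstream of the prolactin receptor, Stat5a read 47.6, 962, 595, 42.5, 750 and 457, and Socs2, a feedback inhibitor of cytokine receptors, 1779, 12851, 9785, 1877, 18459 and 10203. Both were lowest on the arrays with labels mock brain and SHT ovary. Of this list of hormones and signalling genes, 3 of 5 above the floor were higher and 1 lower in the pair labelled brain (median 1.03), 0 of 6 higher and 1 lower in ovary (-0.50), and 0 of 5 either way in uterus (-0.74).

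The other EGF family genes had 2 of 4 higher in brain (median 0.90), 3 of 6 lower in ovary (-1.33) and 2 of 6 higher in uterus (0.52), with none counted the other way. Egfr, the receptor that Btc and Ereg bind, read 539, 1820, 2446, 516, 3107 and 3931, with the arrays with labels mock brain and SHT ovary lowest. Adam17, a protease that sheds several ligands of the EGF family, had the same arrays lowest, at 514 and 511 against 1758 to 2530. Nrg1, a ligand of the receptors Erbb3 and Erbb4, read 1577 and 970 on the arrays with labels mock ovary and SHT uterus, where Has2 was also above background, and at most 257 elsewhere.

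Partners of the hyaluronan matrix were counted in both directions in each pair, in brain and ovary not far from the shares over all genes. In brain 3 of 8 were higher and 2 lower (median 0.51), in ovary 2 of 8 higher and 3 lower (-0.73), and in uterus 1 of 5 higher and 3 lower (-1.59). Itih3, a heavy chain of inter-alpha-trypsin inhibitor, and Hapln1, which links hyaluronan to proteoglycans, were above the bound on the arrays with labels mock brain and SHT ovary alone. Itih3 read 2991 and 2509 there and at most 159 elsewhere, and Hapln1 1080 and 958 against at most 65.6. Cd44, the hyaluronan receptor, ran the other way and read 74.7 and 216, 1658 and 67.2, and 327 and 2196. Has3, another hyaluronan synthase, exceeded the bound on the array labelled SHT uterus (517).

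Around Pappa, 4 of 6 genes were higher in brain (median 1.95), 4 of 5 lower in ovary (-1.60), and 1 of 6 higher with 1 lower in uterus (-0.00019). Stc1 and Stc2, stanniocalcins that inhibit the protease, read 1007 and 1009 on the array labelled SHT brain and 177 and 114 on that labelled mock brain, where Pappa was high. Stc2 read 745 on the array labelled mock uterus, 461 on mock ovary and 508 on SHT uterus. Stc1 read 1763 on mock uterus, but 95.7 on mock ovary and 167 on SHT uterus, under the bounds there. These last 2 values were no higher than the 177 on the array labelled mock brain, so low Stc1 was not confined to the arrays where Pappa was high. Igfbp4, the substrate of the protease, read 3411, 7629, 7832, 2823, 13879 and 13794. It was lowest on the arrays with labels mock brain and SHT ovary, where Pappa was high. Igfbp5 was lowest on the same arrays (7931 and 7371), as were Egfr and Adam17, and a link to Pappa was not tested. Pappa2, the paralogue of Pappa, exceeded the bound on the array labelled SHT uterus alone (644).

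Among targets of the luteinising hormone surge, 4 of 8 were higher in brain and none lower (median 1.21), 5 of 8 lower and 1 higher in ovary (-2.28), and 3 of 8 higher and none lower in uterus (0.45). Pgr, counted in ovary and uterus, is also a uterus marker by which the labels were judged. The counts in these pairs are thus not independent of the markers. Adamts1, a protease of the ovulating follicle, read 534, 2251, 7747, 395, 1130 and 7542, highest on the arrays with labels mock ovary and SHT uterus. Cebpb, a transcription factor, read 910 and 955 on the arrays with labels mock brain and SHT ovary and 8326 to 10735 on the other 4. Ptgs2, the inducible prostaglandin synthase, read 345, 74.8, 86.1, 422, 28.6 and 598. It was above the bound on the arrays labelled SHT ovary and SHT uterus. On the first it was so by little (422 against 403) and lay under the 99th percentile bound of 691. The 345 on the array labelled mock brain, the closest to SHT ovary, lay under a higher bound of 541, so these calls do not separate SHT from mock.

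**Figure D3:**
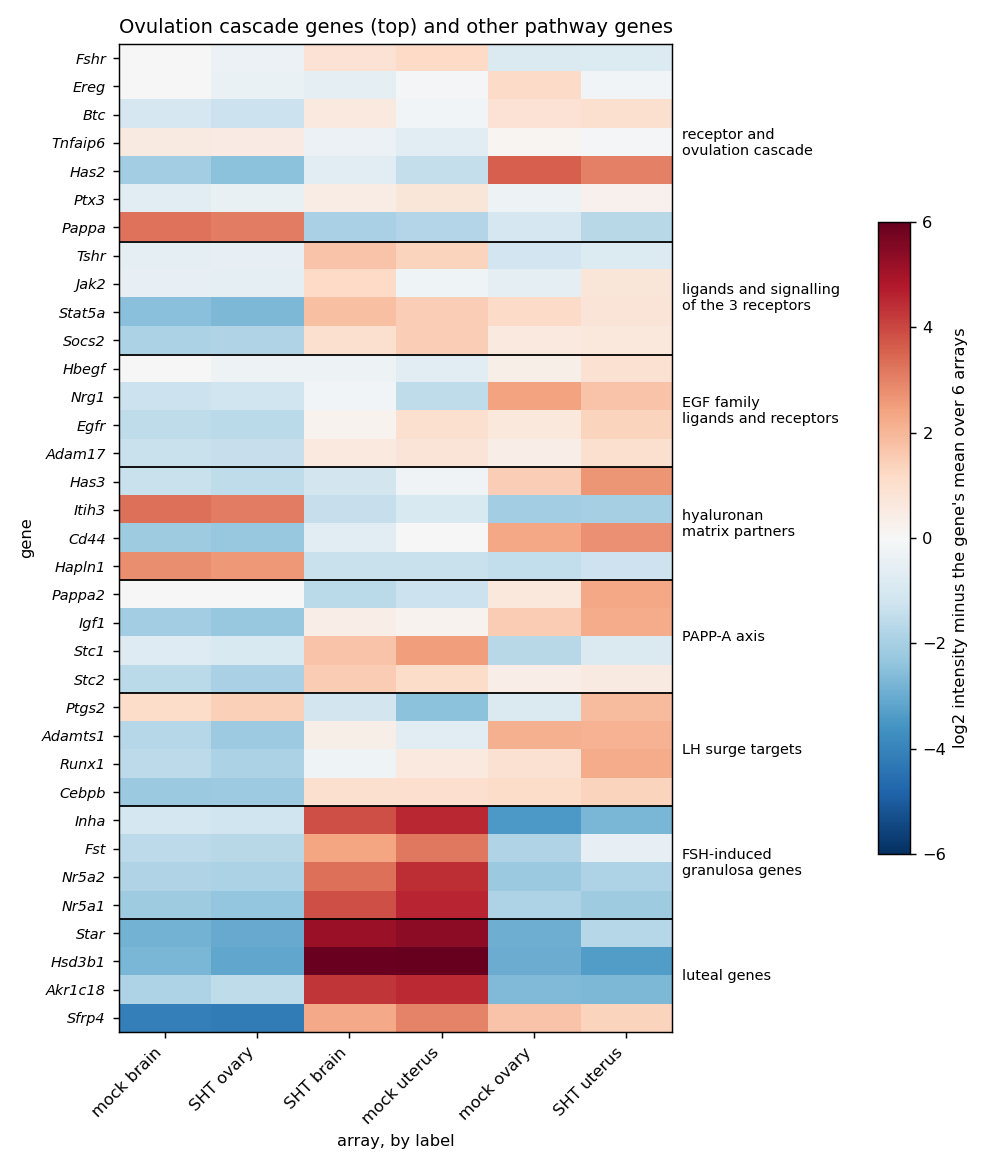
Colour shows log2 intensity minus the gene's mean over the 6 arrays (scale from -6 to 6) for the 7 genes and the 4 genes of widest range in each pathway list (rows), on the arrays by label (columns, closest arrays side by side). Luteal and FSH-induced granulosa genes are highest on the arrays labelled SHT brain and mock uterus, as is Fshr by less, while Has2 is highest on those labelled mock ovary and SHT uterus and Pappa on those labelled mock brain and SHT ovary.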

How the data were processed

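RNA of 6 samples was measured on 1-colour Cy5 arrays, per the labels' protocols. The authors deposited linear intensity for 26423 probes, and per the submitters' processing notes they used limma, with no version or role given. Neither background correction nor scaling nor filters are stated. The array medians differ, so the deposited intensity values had not been brought to 1 median.

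Values under the 5th percentile of an array's positive values (5.66 to 6.66) were set to it, and log2 was taken without scaling between arrays. Of the probes, 20377 had 1 gene symbol in the platform annotation, 6046 none and 0 several. Symbols were updated through RefSeq (GRCm38.p6), with 18213 current, 2126 through a synonym and 38 kept. For 17742 genes the probe with the highest mean was used. Probe positions are not printed, since no source names the build behind the probes. Promoters came from a RefSeq table, which matched Fshr, Btc, Tnfaip6 and Ptx3 of the measured genes.

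The genes and lists were chosen with earlier results of these data known. All 7 matched genes are named, with up to 4 genes of each of 7 pathway lists by widest range among those above background on at least 1 array; other list genes were named after their values were seen. Likeness was given for Fshr by rule. With 1 array in each group there is no test within a tissue. The average effect used limma 3.58.1 in R 4.3.3 (lmFit, eBayes with a trend, tissue block, two-sided, Benjamini-Hochberg), whose p-values measure only the spread between these samples. Calls were tested on simulated data. In the limma simulation, arrays of a labelled tissue shared their tissue levels, unlike the arrays here. It thus does not show how the fit behaves on these arrays. Alternatives covered scaling, probe summary, floors, threshold, low values, bound, block, trend and each tissue left out.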

Additional observations from a re-analysis of the deposited data

Results flagged for a closer look

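Btc and Pappa, as read, differed in opposite directions between labelled tissues, each past 2-fold and above the level floor. Pappa differed (SHT minus mock, log2) by -5.10 in brain and 3.97 in ovary, above the background bound on all 4 arrays. Btc differed as read by 1.72 in brain, -2.27 in ovary and 1.14 in uterus. The dimmer array of each pair lay inside the background spread, so these are not measured folds, and in brain no fold can be given. Between the closest arrays labelled SHT brain and mock uterus, Btc differed by 1.96-fold relative to the median gene, with no background bound put in. The difference between tissues was not tested, as each rests on 1 array against 1, and the markers go against the label of at least 1 array in every pair.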

How the results depend on the processing

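With 1 array a group, no result has a replicate error. The count of genes at least 2-fold different was 3, 2 and 2 in the pairs labelled brain, ovary and uterus. With the level floor at the 60th percentile it was 1, 1 and 0. With no floor it was 4 in ovary, where Ereg and Has2 entered. In uterus it was 1 after quantile normalization and 1 at a 3-fold threshold, Fshr in both. In brain it stayed 3 after quantile normalization and with low values raised to the olfactory receptor median, with Fshr counted and Btc not in both. The other settings moved these counts by no more than 1.5 times, among them values as deposited with no median gene subtracted, chosen after seeing the data. No counted difference changed sign under any setting run. With a bound at the 99th percentile, 0 genes exceeded it on the arrays labelled mock uterus and SHT brain, and 1, Has2, on those labelled SHT uterus and mock ovary. Fshr then exceeded it nowhere. With the 90th, 5 did on the array labelled mock ovary. The labels give no replicate numbers, so the limma fit pairs arrays by labelled tissue alone. None of the genes tested passed it under any setting run, among them the fit with no tissue block. Ereg, Tnfaip6 and Has2 were tested only in the fit with no level floor.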
